A study of Homo sapiens with 12 samples.

Results

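The DNA replication and S-phase genes described here are 46 genes taken from a list of symbols: the loading and activating factors of the replicative helicase, the helicase itself, the clamp, polymerases and ligase of the fork, the enzymes that supply deoxynucleotides, the regulators of S-phase entry, and proteins that copy chromatin or protect the fork. The list was chosen with earlier results of these libraries known. Shares of all genes given beside the members' counts are therefore a description and not an independent test. All 46 symbols stood in the deposited table of 35587 symbols, and all 46 passed the filter for testing, which 13299 symbols passed. They were followed in 3 lines of TeloHAEC, endothelial cells of the human aorta that telomerase keeps dividing. The lines are a control line labelled wild type (NT), a line in which Cas9 and guide RNAs targeted TSPAN14 (TKO), and a line in which they targeted NOTCH1 (NKO). TSPAN14 encodes a tetraspanin that binds ADAM10, the protease that cleaves Notch receptors, and NOTCH1 encodes a Notch receptor. Each line was grown for 24 hours on a plate coated with IgG (the control) or with Delta-like ligand 4 (DLL4, a Notch ligand), both at 2.5 mg/mL per the labels, and each of the 6 groups had 2 libraries of polyadenylated RNA. Each targeted gene is represented by 1 line, so the edit and any other difference between the lines cannot be told apart. Both libraries of a group are labelled as biological repeats, with no word on whether they came from separate cultures, so the p-values measure the spread between these libraries, which may be technical.

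Replication is prepared in G1, when the origin recognition complex (ORC), CDC6 and CDT1 load the ring of MCM2 to MCM7 onto origins, and it starts in S phase, when CDC45 and the GINS complex join the ring and make it an active helicase. Cyclin E with CDK2 drives this step, and E2F transcription factors, held back by RB until cyclin-dependent kinases phosphorylate it, drive the transcription of many of the genes involved, cyclin E genes and E2F1 among them. In endothelium, Notch signalling through DLL4 is known for restraining proliferation and sprouting and for favouring arterial identity.

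The 12 libraries held TPM values, transcript abundances corrected for length and scaled to a common total, which summed to 974989 to 977130 over the table. TPM keep no record of reads, so depth is unknown and precision is the spread between the 2 libraries of a group (Pearson's r on the log2 scale 0.987 to 0.992 within groups). All 10 endothelial markers were present in every library (summed level 1681 to 2159 TPM), PECAM1 and CDH5 included. Of markers of other cells, 2 of 8 leukocyte, 4 of 8 fibroblast or mural and 3 of 6 epithelial genes reached 1 TPM in any library. KRT5 was listed at 0 in all 12 libraries and SPI1 and EPCAM did not exceed 0.0947 and 0.210 TPM, while the epithelial list was summed at 724 to 838 TPM in NT cells on IgG, 857 to 864 in NT cells on DLL4, 1085 to 1304 and 912 to 1008 in TKO cells, and 940 to 1275 and 906 to 1345 in NKO cells, nearly all of it KRT8, KRT18 and KRT19. The fibroblast and mural list was summed at 17.4 TPM in NT cells on IgG and 24.3 to 26.3 on DLL4, 22.1 to 24.0 and 25.6 to 33.2 in TKO cells, and 12.2 to 14.6 and 14.7 to 17.2 in NKO cells. The leukocyte list (CD14 and CD68) was summed at 43.4 to 54.2 TPM in NT, 55.2 to 68.2 in TKO and 29.4 to 40.6 in NKO cells, and the part of these marker levels in the results was not tested. The pseudogene KPNA2P2 took 0.28% to 5.61% of the TPM of a library, most in TKO library IgG 3. Libraries are named by line, coating and the number in the name of their column, which is 2 or 3 in NT and TKO and 1 or 2 in NKO cells. On IgG, RNA of the targeted genes was still present: TSPAN14 was at 189 and 218 TPM in NT against 127 and 148 TPM in TKO cells, and NOTCH1 at 17.8 and 19.6 TPM in NT against 19.2 and 15.6 TPM in NKO cells. The Notch targets checked did not rank the lines alike. From IgG to DLL4, mean HES1 went from 41.7 to 80.0 TPM for NT, 9.33 to 51.9 for TKO, 22.4 to 57.6 for NKO. NRARP also gained most in TKO (8.42 to 19.7 TPM, against 11.7 to 15.7 for NT), with DLL4 libraries far apart there. HEY1 and HEY2 gained most in NT, HEY2 from 11.3 to 56.4 TPM, against 31.0 to 59.9 for TKO. The Notch target HES4 rose on DLL4 in every line, by 3.91 ± 0.19 (NT), 3.61 ± 0.19 (TKO) and 2.12 ± 0.19 (NKO). These and all later changes are differences of log2(TPM + 1) with the standard error of the fit, which understates changes of genes at low levels. A gene is said to rise, fall or be called where limma's p, adjusted over the 13299 genes, was under 0.05. An exact permutation of 2 libraries against 2 has a smallest two-sided p of 0.333, so all tests pool the spread over genes and libraries.

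E2F sites are the sequence feature that these genes are best known to share, and 4 promoter windows are printed because they belong to the members with the smallest p for DLL4 in NT cells whose window held an E2F word.
Each window runs from 250 bases before the annotated start to base 50 from it (RefSeq, GRCh38.p14), written 5′ to 3′ on the strand of the gene, with the E2F words in capitals.
The words searched on both strands were TTTCCCGC, TTTCGCGC, TTTGCCGC and TTTGGCGC.
In MCM2 (chr3:127598161-127598460, plus strand) a word and the reverse complement of the same word overlap from base 3 after the start.
In MCM7 (chr7:100101348-100101647, minus strand) the words begin at bases -187 and -9.
In E2F1 (chr20:33686336-33686635, minus strand) they begin at -33 and -20, and in CDT1 (chr16:88803539-88803838, plus strand) at -35.
MCM2: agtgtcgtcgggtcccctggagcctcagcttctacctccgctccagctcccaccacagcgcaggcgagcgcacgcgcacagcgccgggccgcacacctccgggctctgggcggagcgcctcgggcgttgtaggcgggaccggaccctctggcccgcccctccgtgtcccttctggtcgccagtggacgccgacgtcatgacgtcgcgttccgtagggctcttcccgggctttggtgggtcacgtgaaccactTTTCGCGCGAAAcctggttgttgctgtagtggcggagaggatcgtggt
MCM7: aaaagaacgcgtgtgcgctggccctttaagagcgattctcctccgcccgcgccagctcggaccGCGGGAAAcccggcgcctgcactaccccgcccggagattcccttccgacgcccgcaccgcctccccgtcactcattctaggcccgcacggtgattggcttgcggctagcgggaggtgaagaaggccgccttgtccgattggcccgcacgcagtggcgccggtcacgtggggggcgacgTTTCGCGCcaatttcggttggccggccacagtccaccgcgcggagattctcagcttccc
E2F1: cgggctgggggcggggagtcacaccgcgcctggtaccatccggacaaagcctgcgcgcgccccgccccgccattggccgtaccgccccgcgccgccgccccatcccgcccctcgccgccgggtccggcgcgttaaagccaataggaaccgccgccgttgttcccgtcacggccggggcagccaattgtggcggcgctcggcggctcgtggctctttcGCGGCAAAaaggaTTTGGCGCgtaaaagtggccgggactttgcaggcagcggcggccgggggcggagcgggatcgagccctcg
CDT1: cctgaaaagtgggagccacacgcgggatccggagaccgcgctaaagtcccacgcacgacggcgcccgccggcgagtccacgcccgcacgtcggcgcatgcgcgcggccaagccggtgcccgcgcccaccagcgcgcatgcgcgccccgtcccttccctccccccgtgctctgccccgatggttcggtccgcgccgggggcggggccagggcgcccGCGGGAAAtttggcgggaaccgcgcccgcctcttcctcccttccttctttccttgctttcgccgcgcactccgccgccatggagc

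Promoter windows were found for 41 of the 46 members. An E2F word stood in 22 of these 41 windows (53.7%), against 3.31% of 35116 windows of the same length in the RefSeq table. The 2 sets are unlike, which holds for each word below. Members had 1 window each, while the 35116 were not limited to 1 per gene, to protein-coding genes or to expressed genes. For the E2F words the share was 53.8% among the 26 members that fell on DLL4 in NT cells and 53.3% among the 15 that were not called, nearly the same. MCM6 had 4 matches, the most of any member, and its change on DLL4 was among the smaller ones, while CHAF1A, FEN1, POLD1 and ORC1, which fell by 0.74 or more, had none of these letters in the window. The CCAAT word bound by NF-Y stood in 56.1% of member windows and 34.6% of all windows, with 69.2% among the members that fell and 33.3% among those not called. The SP1 word GGGCGG stood in 70.7% of member windows and 45.0% of all, with 73.1% and 66.7% in the same split. TGGGAA, the core of RBPJ sites through which Notch acts, stood in 26.8% of member windows and 24.0% of all, with 19.2% among the members that fell and 40.0% among those not called. None of these splits was tested. The CHR word TTTGAA, a mark of genes of late G2 and mitosis, stood in 1 member window (RRM1; 2.44%) and in 15.2% of all windows, against 70.8% of the 24 windows found for 30 mitosis genes, where the E2F words stood in 12.5%. A match is only a match of letters in this window, and no word contains a word of another kind, though words that adjoin can share letters at their ends.

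In NT cells on IgG the members covered a wide range of TPM, which can be compared between genes because it is corrected for length. PCNA, the sliding clamp, was highest at 285 ± 4.65 TPM (SD, n = 2), followed by the polymerase delta subunit POLD2 (162 ± 9.83), the ribonucleotide reductase subunit RRM2 (144 ± 13.7), MCM7 (141 ± 7.27), the dUTPase DUT (134 ± 0.833), thymidylate synthase TYMS (109.6 ± 1.82) and MCM4 (103 ± 19.3). From POLD2 to DUT each gene lay within the SDs of the next in this order, as TYMS and MCM4 did. The median over the 46 members was 38.6 TPM. Only 3 members were under 10 TPM: ORC1 (8.59 ± 0.555), the catalytic subunit of polymerase alpha POLA1 (4.56 ± 0.453) and the transcription factor gene E2F2 (0.560 ± 0.102). E2F2 passed the filter through 4 libraries of the edited lines alone, and its 12 values lay between 0.218 and 1.40 TPM. The other 45 members were at 1 TPM or more in all 12 libraries. Of the 6 helicase subunits, which form a ring with 1 copy of each, MCM6 was lowest at 19.4 ± 0.0169 TPM and MCM7 highest.

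The first comparison asks what DLL4 does to these genes in the control line. Replication genes were lower on DLL4 throughout: 30 of the 46 members fell and 0 rose, where 8.34% of all genes tested fell and 7.68% rose. Both DLL4 libraries lay below both IgG libraries in all 46 members, against 27.9% of all genes tested. The median change of the members was -0.56, beside 0.01 for all genes tested, and the members' changes ran from -1.03 (MCM2) to -0.13 (DUT). The summed level of the 46 genes was 0.249% and 0.261% of the TPM of the IgG libraries and 0.189% and 0.174% of that of the DLL4 libraries. In bulk RNA, fewer cells in S phase and less of these RNAs per cell cannot be told apart. In a fit of the 4 NT libraries alone the count of 30 was 18, where 3.75% of all genes fell. Leaving out any 1 NT library also ended some of the calls. In those fits MCM2 changed by -1.12 to -0.93 and MCM6 by -0.41 to -0.27.

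**Figure D1:**
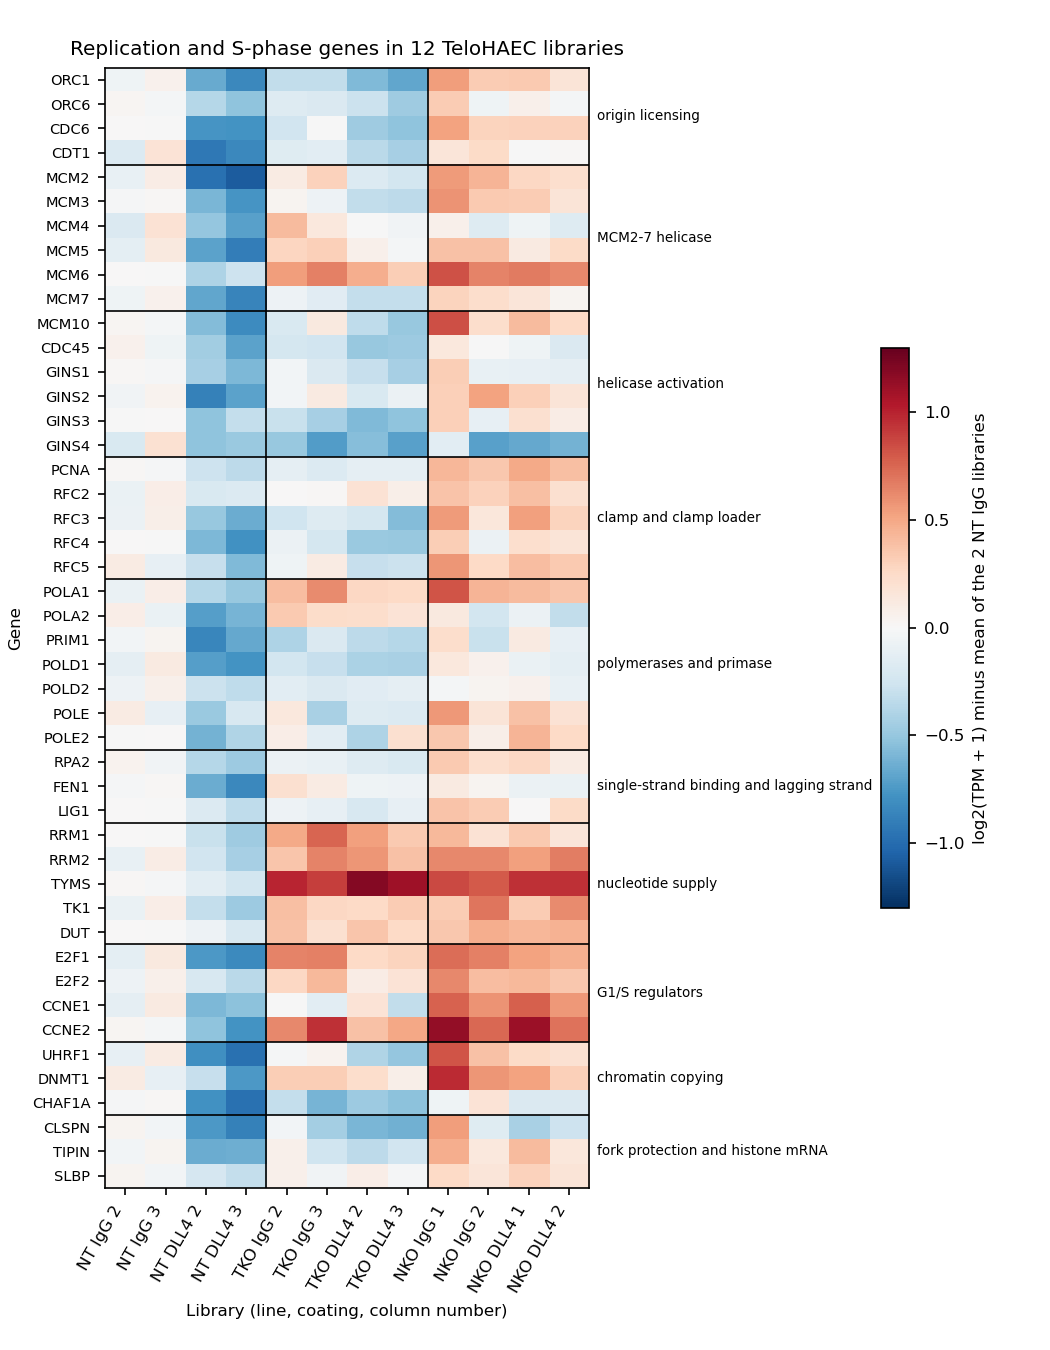
Levels of the 46 replication and S-phase genes (rows, grouped by role) in the 12 libraries (columns), as log2(TPM + 1) minus the mean of the 2 NT libraries on IgG; red is higher and blue lower. The 2 NT libraries on DLL4 are blue in all 46 rows, and TYMS is red in all 8 libraries of the edited lines.

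The 4 licensing factors all fell in NT cells. CDC6, an ATPase that loads the MCM ring, was at 52.7 and 52.7 TPM on IgG and at 30.6 and 30.2 TPM on DLL4. The libraries of each coating lay close together and far from those of the other, and CDC6 fell by 0.77 ± 0.10 (limma adjusted p = 0.000639). CDT1, which brings MCM2 to MCM7 to the loader, was at 25.2 and 32.7 TPM on IgG and 14.6 and 15.6 TPM on DLL4. The IgG libraries of CDT1 differed more from each other than the DLL4 libraries did, yet both were well above them, and CDT1 fell by 0.88 ± 0.12 (adjusted p = 0.000631). The ORC subunits ORC1 (-0.75 ± 0.13, adjusted p = 0.00382) and ORC6 (-0.45 ± 0.12, adjusted p = 0.0315) fell as well.

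All 6 helicase subunits fell, with a median of -0.72. MCM2 was at 35.3 and 40.4 TPM on IgG and 18.8 and 17.3 TPM on DLL4, a change of -1.03 ± 0.10 (limma adjusted p = 9.21e-05). MCM7 was at 136 and 146 TPM on IgG and 87.6 and 77.4 on DLL4. It fell by 0.77 ± 0.08 (adjusted p = 0.000177), and the gap between coatings was several times the gap within either. MCM5 was at 90.6 and 108 TPM on IgG and 60.5 and 52.5 on DLL4 (-0.80 ± 0.10, adjusted p = 0.00042). MCM3 was at 67.3 and 68.9 TPM on IgG and 44.7 and 39.7 on DLL4 (-0.68 ± 0.10, adjusted p = 0.00136). In both genes the groups were far apart compared with their spread. MCM4 was at 89.0 and 116 TPM on IgG and 71.6 and 62.0 on DLL4 (-0.60 ± 0.14, adjusted p = 0.0146), and its call was lost without library IgG 3 (adjusted p = 0.129) or DLL4 3 (0.11). MCM6 was at 19.4 and 19.4 TPM on IgG and 14.4 and 15.9 on DLL4, and it moved least of the 6 (-0.34 ± 0.10, adjusted p = 0.0463). Its call was lost without any one of the 4 NT libraries (adjusted p = 0.0824 to 0.238).

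**Figure D2:**
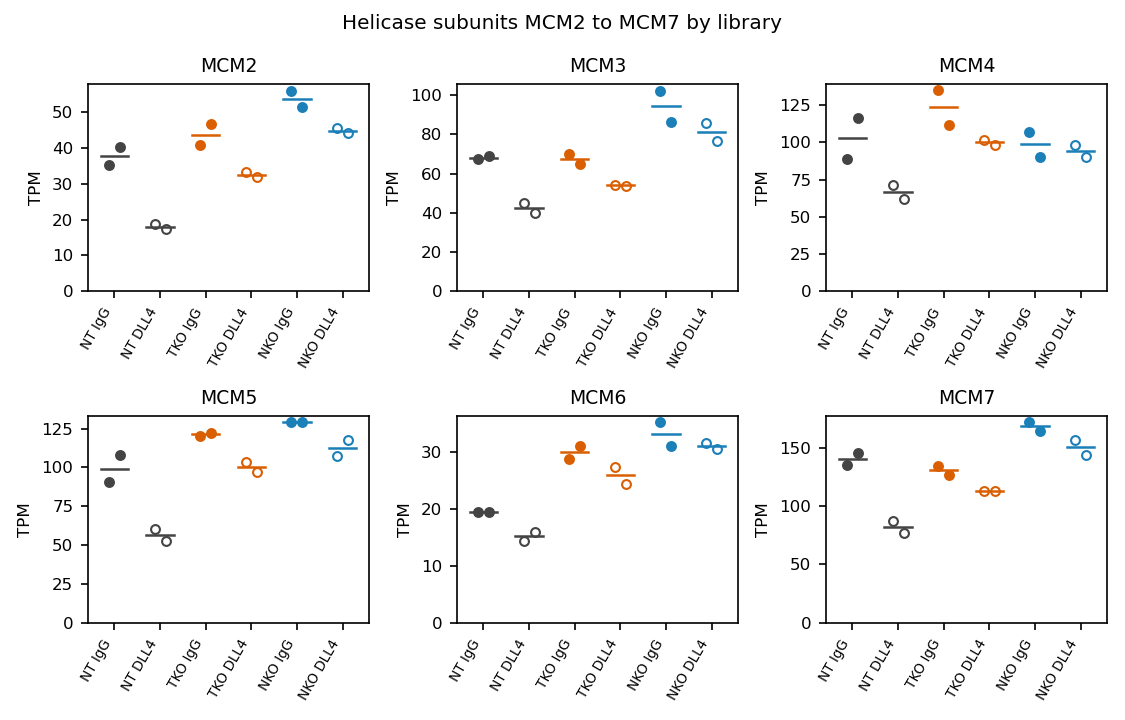
TPM of MCM2 to MCM7 in each library (points; filled for IgG, open for DLL4) with the mean of each group of 2 (lines), each panel with its own axis from 0. In all 6 panels both NT libraries on DLL4 lie below both NT libraries on IgG, and in MCM6 all 8 libraries of the edited lines lie above all 4 NT libraries.

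Of the factors that join the ring at activation, GINS2 (-0.78 ± 0.12, limma adjusted p = 0.00167), CDC45 (-0.58 ± 0.10, adjusted p = 0.00391), MCM10, which helps to open the duplex (-0.69 ± 0.19, adjusted p = 0.0317), and GINS1 (-0.51 ± 0.13, adjusted p = 0.026) fell. The other GINS subunits, GINS3 (-0.42 ± 0.14, adjusted p = 0.0648) and GINS4 (-0.50 ± 0.18, adjusted p = 0.0869), were lower without passing the test. PCNA was at 288 and 281 TPM on IgG and 236 and 225 TPM on DLL4. The change of this most abundant member was among the smaller ones (-0.30 ± 0.07, adjusted p = 0.011), and the call was lost without library IgG 2 (0.0616) or DLL4 3 (0.0858). Of the small subunits of the loader that opens the clamp, RFC4 (-0.68 ± 0.13) and RFC3 (-0.57 ± 0.16) fell, while RFC5 (-0.44 ± 0.14, adjusted p = 0.0511) and RFC2 (-0.19 ± 0.09, adjusted p = 0.208) did not pass.

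The polymerases did not move as 1 block. POLD1, the catalytic subunit of polymerase delta, was at 52.5 and 61.6 TPM on IgG and 34.3 and 32.7 on DLL4. Both DLL4 libraries were well below both IgG libraries, and POLD1 fell by 0.75 ± 0.09 (limma adjusted p = 0.000346). Its accessory subunit POLD2 fell less (-0.31 ± 0.08, adjusted p = 0.0197). The primase subunit PRIM1 (-0.76 ± 0.16, adjusted p = 0.0109) and the second subunit of polymerase alpha, POLA2 (-0.66 ± 0.13, adjusted p = 0.00762), fell, while POLA1 (-0.43 ± 0.15, adjusted p = 0.0843) and the polymerase epsilon subunits POLE (-0.34 ± 0.19, adjusted p = 0.265) and POLE2 (-0.50 ± 0.19, adjusted p = 0.0994) did not pass. FEN1, the nuclease that trims the flaps of Okazaki fragments, was at 89.7 and 91.6 TPM on IgG and 57.5 and 50.2 on DLL4 and fell by 0.74 ± 0.08 (adjusted p = 0.000188). RPA2, a subunit of the protein that coats single strands, fell by 0.42 ± 0.09 (adjusted p = 0.00991), and LIG1, which seals the fragments, was lower by an amount that did not pass (-0.26 ± 0.10, adjusted p = 0.118).

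None of the 5 nucleotide supply genes was called in NT cells, although each was lower in both DLL4 libraries. The ribonucleotide reductase subunits RRM1 and RRM2 changed by -0.38 ± 0.12 and -0.34 ± 0.11 (limma adjusted p = 0.0611 and 0.0648), and thymidine kinase TK1 by -0.39 ± 0.13 (0.0661). TYMS, which makes dTMP, changed by -0.19 ± 0.07 (0.0943) and DUT by -0.13 ± 0.08 (0.333), the smallest change of any member. At an unadjusted p under 0.05, limma's test gave 42 of the 46 members, all lower on DLL4, beside 29.5% of all genes, so most of the 16 members without a call lay near the threshold. Among the regulators of S-phase entry, E2F1 was at 25.7 and 30.7 TPM on IgG and 16.3 and 15.4 on DLL4 and fell by 0.79 ± 0.10 (adjusted p = 0.000361). The cyclin E genes were at lower levels: CCNE1 was at 9.86 and 11.7 TPM on IgG and 6.86 and 7.15 on DLL4 (-0.56 ± 0.17, adjusted p = 0.0438). CCNE2 was at 13.4 and 12.9 TPM on IgG and 8.82 and 7.25 on DLL4 (-0.65 ± 0.18, adjusted p = 0.0304). Both were called, and both calls were lost without any one of the 4 NT libraries (adjusted p = 0.0725 to 0.249 for CCNE1 and 0.0585 to 0.178 for CCNE2). E2F2 was at 0.488 and 0.632 TPM on IgG and 0.353 and 0.218 on DLL4 and was not called (adjusted p = 0.374).

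Of the 3 genes that copy chromatin behind the fork, 2 fell, both by more than the members' median. UHRF1, which reads hemimethylated DNA and recruits the maintenance methyltransferase, fell by 0.88 ± 0.13 (limma adjusted p = 0.00144). The largest subunit of chromatin assembly factor 1, CHAF1A, went from 53.3 ± 1.07 to 28.7 ± 2.69 TPM and fell by 0.88 ± 0.12 (adjusted p = 0.000663). DNMT1, the methyltransferase itself, changed by -0.52 ± 0.16 and just missed the threshold (adjusted p = 0.0502). Of the fork protection genes, CLSPN (-0.81 ± 0.20, adjusted p = 0.0208) and TIPIN (-0.64 ± 0.15, adjusted p = 0.0136) fell, and SLBP, which binds the stem-loop of histone mRNAs, changed by -0.26 ± 0.09 without passing (0.0629). Polyadenylated libraries hold little of the replication-dependent histone mRNAs that SLBP serves, so these were not examined. Of the 30 calls in NT cells, 14 held under each of 12 alternative settings: ORC1, CDC6, CDT1, MCM2, MCM3, MCM5, MCM7, GINS2, RFC4, POLD1, FEN1, E2F1, UHRF1 and CHAF1A. The other 16 were lost under at least 1 setting, with a highest adjusted p from 0.0589 (CDC45) to 0.249 (CCNE1). ORC6, MCM6, MCM10, GINS1, RFC3, CCNE1, CCNE2, CLSPN and TIPIN were lost without any one of the 4 NT libraries, POLA2 without IgG 2 or DLL4 2, PRIM1 without IgG 3 or DLL4 2, POLD2 without IgG 3, DLL4 2 or DLL4 3, and RPA2 without IgG 2 or DLL4 3.

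Of the pathway's genes that are not among the 46, some fell on DLL4 in NT cells and most were not called, where 8.34% of all genes fell and 7.68% rose. Of 8 other licensing genes 4 fell and 0 rose in NT cells (median -0.27), among them the ORC subunit genes ORC5 (-0.48 ± 0.10) and ORC2 (-0.42 ± 0.11), the helicase paralog MCM8 (-0.61 ± 0.13) and GMNN, which encodes the CDT1 inhibitor geminin (-0.36 ± 0.10). Of 24 other fork genes 8 fell and 1 rose (median -0.38), with DSCC1, part of a clamp loader used in cohesion, at -0.86 ± 0.13, CHAF1B at -0.57 ± 0.12, RNASEH2A, part of an enzyme that removes RNA primers, at -0.45 ± 0.08 and the polymerase epsilon subunit POLE3 at -0.39 ± 0.09. Of 18 E2F, RB and CDK genes 7 fell and 0 rose (median -0.30), the kinase gene CDK4 (-0.47 ± 0.08) and CDC25A, which encodes a phosphatase that activates CDK2 (-0.70 ± 0.17), among them. Of 10 other nucleotide genes 3 fell and 0 rose (median -0.16): NME1 (-0.42 ± 0.08), DTYMK (-0.32 ± 0.08) and SHMT1 (-0.43 ± 0.12). Of 30 mitosis genes 9 fell and 0 rose (median -0.26), with CDC20, an activator of the anaphase-promoting complex, at -0.66 ± 0.08 and the kinase genes AURKB and PLK1 at -0.55 ± 0.09 and -0.40 ± 0.08. The calls were 9 of 30 mitosis genes and 30 of 46 replication genes, but the lists were chosen with earlier results of these libraries known and the difference between them was not tested.

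**Figure D3:**
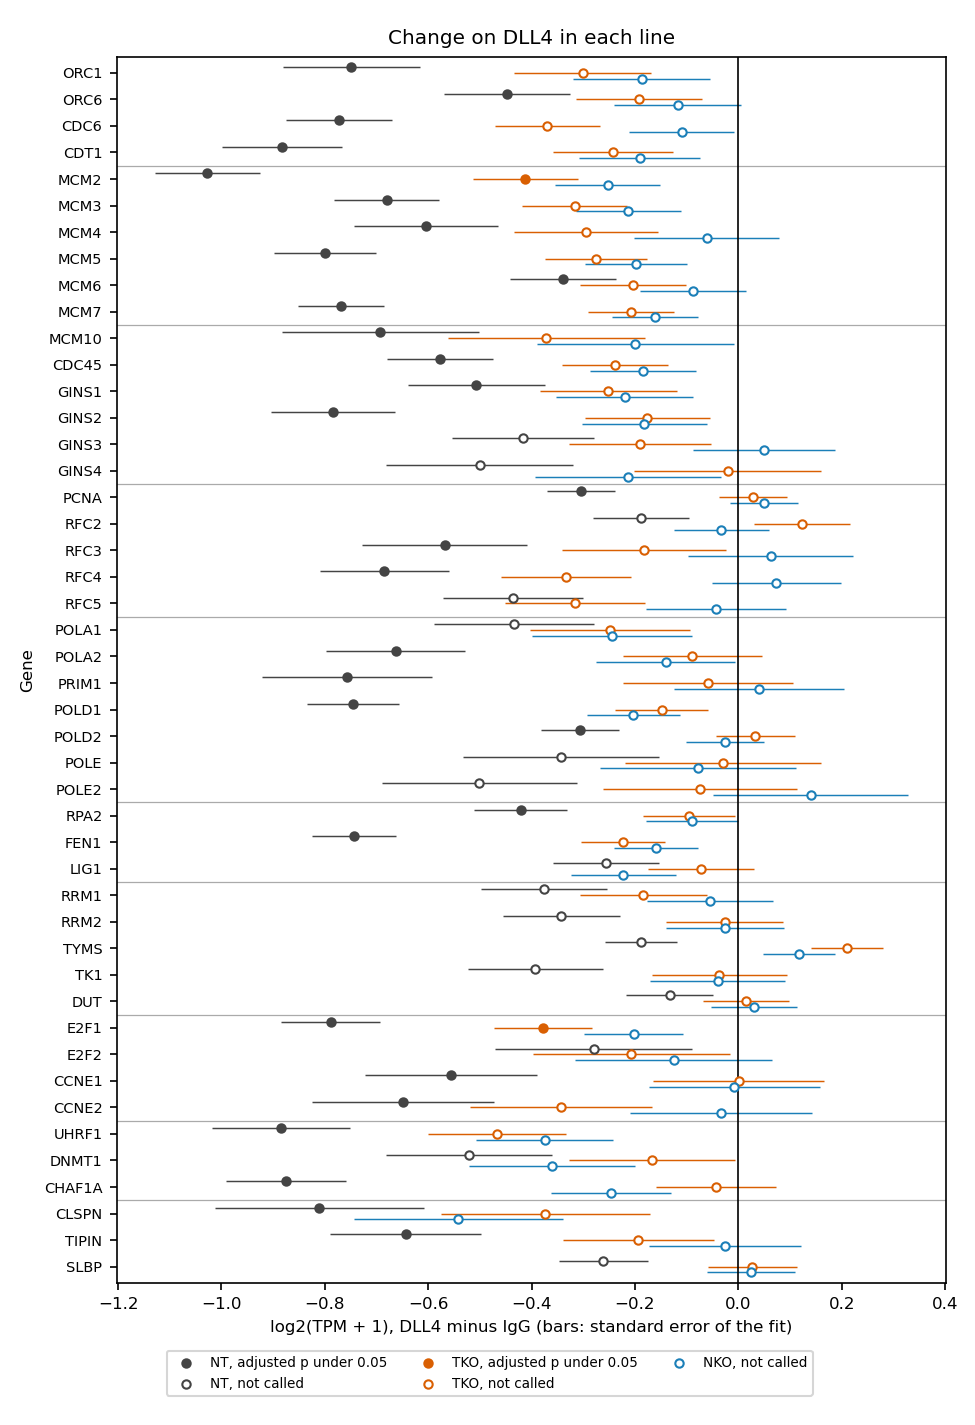
Change on DLL4 against IgG (log2(TPM + 1), horizontal axis) of each of the 46 genes in NT (dark), TKO (orange) and NKO cells (blue), with standard errors of the fit; filled points passed limma's adjusted p threshold of 0.05. In NT cells 30 points are filled and all 46 lie left of 0, against 2 filled and 39 left of 0 in TKO cells and 0 filled and 37 left of 0 in NKO cells.

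In TKO cells few of the genes were called on DLL4. Of the 46 members 2 fell and 0 rose, where 2.41% of all genes tested fell and 4.11% rose (6.51% in all), and the median change was -0.19. Changes were negative in 39 members, and both DLL4 libraries lay below both IgG libraries in 29 (21.8% of all genes tested) and above them in 2, TYMS and RFC2 (28.5% of all genes). The 2 members called were MCM2 and E2F1. MCM2 was at 40.7 and 46.8 TPM on IgG and 33.2 and 31.9 on DLL4 (-0.41 ± 0.10, limma adjusted p = 0.0358). E2F1 was at 44.6 and 44.9 TPM on IgG and 33.9 and 34.5 on DLL4 (-0.38 ± 0.10, adjusted p = 0.0412). Neither gene's groups overlapped, but the MCM2 call was lost without TKO library IgG 3 (0.208), DLL4 2 (0.142) or DLL4 3 (0.218), and the E2F1 call without any one of the 4 TKO libraries (0.116 to 0.213). The count of 2 was 0 with no filter (0.824% of all genes fell) and 5 with median-of-ratios scaling (3.34%). CDC6 was at 44.3 and 52.6 TPM on IgG and 38.1 and 36.2 on DLL4 and lay just above the threshold (-0.37 ± 0.10, adjusted p = 0.0578), as did UHRF1 (-0.47 ± 0.13, adjusted p = 0.0657). TYMS was higher on DLL4, at 218 and 205 TPM on IgG and 252 and 237 on DLL4, by an amount that did not pass (0.21 ± 0.07, adjusted p = 0.111). CCNE1 was at 10.7 and 9.72 and 12.3 and 8.44 TPM, with groups that overlapped, and PCNA at 262 and 251 and 262 and 262 TPM. At an unadjusted p under 0.05, limma's test gave 13 of the 46 members in TKO cells, beside 19.2% of all genes.

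In NKO cells no member was called by limma at an adjusted p under 0.05 (0 rose and 0 fell, where 0.511% of all genes rose and 0.271% fell), and 5 of the 46 had an unadjusted p under 0.05, beside 9.18% of all genes, a share near that background. The median change was -0.11, with 37 negative values. Both DLL4 libraries lay below both IgG libraries in 17 members (15.1% of all genes tested) and above them in 1, TYMS (18.9% of all genes). MCM2 was at 55.9 and 51.6 TPM on IgG and 45.7 and 44.1 on DLL4 (-0.25 ± 0.10, adjusted p = 0.46). E2F1 was at 47.0 and 44.9 TPM on IgG and 40.7 and 39.0 on DLL4 (-0.20 ± 0.10, adjusted p = 0.567). Both genes were lower in both DLL4 libraries by a small margin. CLSPN had the most negative value (-0.54 ± 0.20, adjusted p = 0.403), and its IgG libraries, at 27.6 and 16.6 TPM, were far apart. PCNA was at 384 and 362 TPM on IgG and 401 and 372 on DLL4, CCNE1 at 19.0 and 16.6 and 19.1 and 16.4, and CCNE2 at 30.1 and 22.7 and 29.5 and 22.0. In these 3 genes the coatings overlapped.

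Whether the lines differed in their response was tested directly, as the DLL4 change in an edited line minus that in NT cells. All 46 values were positive for TKO minus NT (median 0.36, beside 0.01 for all genes) and for NKO minus NT (median 0.47, beside -0.00), which means a change less negative than in NT cells; the 2 comparisons share the NT libraries. For NKO minus NT, 3 members were called, all positive, where 0.316% of all genes were called in that direction and 0.571% in the other. They were MCM2 (0.77 ± 0.14, limma adjusted p = 0.0407), MCM7 (0.61 ± 0.12, adjusted p = 0.0443) and FEN1 (0.58 ± 0.11, adjusted p = 0.0467). FEN1 was at 98.5 and 93.1 TPM on IgG and 85.8 and 85.5 on DLL4 in NKO cells, and MCM7 at 173 and 165 and 158 and 145 TPM. Both lay slightly lower on DLL4 there, without overlap. Each of the 3 calls was lost without any one of the 8 libraries compared (adjusted p = 0.0633 to 0.154 for MCM2, 0.0723 to 0.173 for MCM7 and 0.0629 to 0.175 for FEN1), and the count of 3 was 0 with column number as a replicate block, with no filter, with no variance trend or with only the libraries compared. For TKO minus NT, limma called 0 members (0.196% of all genes were called positive and 0.331% negative), and 23 of the 46 had an unadjusted p under 0.05, beside 15.5% of all genes. The values of smallest p were those of CHAF1A (0.83 ± 0.16, adjusted p = 0.0572), MCM7 (0.56 ± 0.12, 0.0692), POLD1 (0.60 ± 0.13, 0.0717) and FEN1 (0.52 ± 0.11, 0.0782). Between TKO and NKO responses limma called 0 members, with 1 at an unadjusted p under 0.05 (RFC4, -0.41 ± 0.18; 5.81% of all genes), where 0.0827% of all genes were called positive and 0.0677% negative. For MCM2 that difference was -0.16 ± 0.14, so these libraries do not show whether the 2 edited lines responded alike.

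The lines were next compared on the same coating, which asks whether the level of replication genes differs between an edited line and NT cells. On IgG, TKO cells had a mixed pattern: 9 members rose and 3 fell against NT cells (19.6% and 6.52% of members, 15.2% and 12.4% of all genes tested), with a median of -0.03 beside 0.04 for all genes. With median-of-ratios scaling the split was 7 and 6, where 15% of all genes rose and 14.8% fell. In the main fit the share that rose was near that of all genes, and the share that fell was below it. These counts therefore do not set the members apart from other genes. Both TKO libraries lay above both NT libraries in 15 members (34.0% of all genes) and below them in 17 (28.0%). Of the 5 nucleotide supply genes 4 rose. TYMS was at 111 and 108 TPM in NT and 218 and 205 TPM in TKO cells, a rise of 0.94 ± 0.07 (limma adjusted p = 3.58e-06). RRM1 was at 66.2 and 65.6 TPM in NT and 92.9 and 112 in TKO cells (0.62 ± 0.12, adjusted p = 0.00326), and RRM2 at 134 and 153 and 184 and 224 (0.50 ± 0.11, adjusted p = 0.00708). All 3 enzymes were higher in both TKO libraries without overlap, TYMS by the widest margin. The other genes of chromosome 18, which holds TYMS, and chromosome 11, which holds RRM1, had medians of 0.51 and 0.53 in the same comparison, and their part in these values was not tested. DUT rose by 0.30 ± 0.08 (adjusted p = 0.0227). E2F1 was at 44.6 and 44.9 TPM in TKO cells, above both NT libraries (0.65 ± 0.10, adjusted p = 0.000512), CCNE2 at 20.7 and 26.2 TPM (0.78 ± 0.18, adjusted p = 0.00701) and MCM6 at 28.8 and 31.1 TPM (0.60 ± 0.10, adjusted p = 0.00138). POLA1 (0.51 ± 0.15) and MCM5 (0.29 ± 0.10, at 120.2 and 122 TPM) rose as well.

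The 3 members that fell in TKO cells on IgG were GINS4, CHAF1A and POLD1. GINS4 was at 24.9 and 32.9 TPM in NT and 20.1 and 16.9 TPM in TKO cells (-0.61 ± 0.18, limma adjusted p = 0.0286). CHAF1A was at 52.5 and 54.0 TPM in NT and 42.7 and 34.7 in TKO cells (-0.46 ± 0.12, adjusted p = 0.0132), and POLD1 was at 48.0 and 46.2 TPM in TKO cells (-0.27 ± 0.09, adjusted p = 0.0468). Neither group overlapped the other in these genes. The count of 12 called members was 5 in a fit of the 4 libraries compared, where 9.75% of all genes rose and 7.14% fell. Leaving out any 1 of these libraries also ended calls. Without NT IgG 2 the calls of MCM5, POLA1, RRM2, DUT and CHAF1A were lost, without NT IgG 3 those of GINS4, POLA1, POLD1, DUT and CHAF1A, without TKO IgG 2 those of MCM5, POLD1 and DUT, and without TKO IgG 3 those of MCM5, GINS4, POLA1, POLD1, RRM2, CCNE2 and CHAF1A. The highest adjusted p over the alternatives was 0.315 for MCM5, 0.212 for GINS4, 0.311 for POLD1, 0.179 for POLA1, 0.133 for DUT, 0.117 for CHAF1A, 0.0667 for RRM2 and 0.0658 for CCNE2, while TYMS, RRM1, E2F1 and MCM6 held throughout. CDC6, at 44.3 and 52.6 TPM in TKO cells, CDT1 at 25.7 and 26.0 TPM, MCM2 at 40.7 and 46.8, MCM3 at 70.0 and 65.0, MCM4 at 135 and 112 and MCM7 at 135 and 127 were not called on IgG. PCNA, at 262 and 251 TPM, was lower in both TKO libraries without passing (-0.15 ± 0.07, adjusted p = 0.121), and E2F2 was at 0.876 and 1.09 TPM (adjusted p = 0.212).

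On DLL4, where NT levels were lower, 24 members rose in TKO against NT cells and 0 fell (16.1% and 10.5% of all genes tested, 26.6% in all), with a median of 0.39. Both TKO libraries lay above both NT libraries in 36 members, against 37.1% of all genes, and below them in 2, GINS3 and GINS4 (28.2%). All 6 helicase subunits and all 5 nucleotide supply genes rose. TYMS was at 99.4 and 92.8 TPM in NT and 252 and 237 TPM in TKO cells (1.34 ± 0.07, limma adjusted p = 2.25e-07). E2F1 was at 16.3 and 15.4 TPM in NT and 33.9 and 34.5 in TKO cells (1.06 ± 0.10, adjusted p = 1.24e-05). E2F1 in TKO cells on DLL4 thus lay above the NT level on either coating. FEN1 was at 57.5 and 50.2 TPM in NT and 87.3 and 86.4 in TKO cells (0.68 ± 0.08, adjusted p = 9.7e-05). MCM5, at 103 and 96.9 TPM in TKO cells, rose by 0.82 ± 0.10 (adjusted p = 0.000111), MCM2, at 33.2 and 31.9, by 0.82 ± 0.10 (0.000131) and RRM2, at 213 and 187, by 0.82 ± 0.11 (0.00028). MCM6 was at 27.3 and 24.5 TPM (0.73 ± 0.10), MCM7 at 113 and 114 (0.46 ± 0.08), MCM4 at 102 and 98.3 (0.58 ± 0.14) and MCM3 at 54.2 and 53.6 (0.35 ± 0.10). CCNE2 was at 17.3 and 19.0 TPM and rose by 1.09 ± 0.18, while CCNE1 just missed the threshold (0.49 ± 0.17, adjusted p = 0.0512).

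Of the licensing factors only CDT1, at 22.3 and 21.1 TPM in TKO cells on DLL4, rose (0.49 ± 0.12, limma adjusted p = 0.00859), and CDC6, at 38.1 and 36.2 TPM, did not pass (0.28 ± 0.10, adjusted p = 0.0666). The remaining members that rose were GINS2, RFC2, POLA1, POLA2, POLD1, RRM1, TK1, DUT, UHRF1, DNMT1, CHAF1A and SLBP, by 0.30 (SLBP) to 0.87 (POLA2). PCNA (0.18 ± 0.07, adjusted p = 0.0656) and E2F2, at 0.670 and 0.761 TPM (0.42 ± 0.19, adjusted p = 0.141), did not pass. Leaving out any 1 of the 4 libraries ended some of the 24 calls. The CDT1 call was lost without NT DLL4 2 (adjusted p = 0.0597) or TKO DLL4 2 (0.0698), the MCM4 call without NT DLL4 3 (0.088) or TKO DLL4 2 (0.0636), and the MCM3 call without NT DLL4 3 (0.182), TKO DLL4 2 (0.119) or TKO DLL4 3 (0.0989). RFC2, POLD1 and UHRF1 were lost without any one of the 4 libraries (highest adjusted p over all alternatives 0.187, 0.108 and 0.191), CHAF1A and SLBP without NT DLL4 3, TKO DLL4 2 or TKO DLL4 3 (0.22 and 0.176), and DNMT1 without NT DLL4 3 or TKO DLL4 2 (0.0943). All 9 members that rose in TKO cells on IgG also rose on DLL4, where they were 37.5% of the 24. The same 2 lines are compared on both coatings, so any lasting difference between the lines appears in both. The share of all genes called on both coatings was not computed.

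The summed level of replication genes was highest in NKO cells. On IgG, 17 members rose against NT cells and 0 fell (4.92% and 5.74% of all genes tested), with a median of 0.35 beside 0.06 for all genes. Both NKO libraries lay above both NT libraries in 32 members, against 30.9% of all genes, and below them in 0 (21.2%). The summed share of the 46 genes on IgG was 0.339% and 0.314% of TPM in NKO cells. It was 0.282% and 0.276% in TKO cells and 0.249% and 0.261% in NT cells. Abundant genes weigh most in this sum. In TKO against NT cells on IgG the median member change was -0.03, with 25 members negative and 21 positive. There mean TYMS was 110 TPM in NT and 211 in TKO cells, and mean RRM2 144 and 204. CCNE2, a cyclin E gene, was at 30.1 and 22.7 TPM in NKO cells (0.94 ± 0.18, limma adjusted p = 0.00598), and CCNE1 at 19.0 and 16.6 TPM (0.68 ± 0.17, adjusted p = 0.0253). TYMS was at 199 and 191 TPM (0.83 ± 0.07, adjusted p = 3.08e-05). Each of these libraries lay above every NT library of either coating. MCM6 was at 35.3 and 31.0 TPM (0.74 ± 0.10, adjusted p = 0.000915), E2F1 at 47.0 and 44.9 (0.69 ± 0.10, adjusted p = 0.000915) and RRM2 at 221 and 222 (0.62 ± 0.11, adjusted p = 0.00513). PCNA was at 384 and 362 TPM (0.39 ± 0.07, adjusted p = 0.0034). MCM2 rose by 0.50 ± 0.10, MCM3, at 102 and 86.3 TPM, by 0.46 ± 0.10, MCM5, at 129 and 129 TPM, by 0.38 ± 0.10 and CDC6, at 76.2 and 64.7 TPM, by 0.41 ± 0.10.

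DNMT1 (0.77 ± 0.16), UHRF1 (0.60 ± 0.13), POLA1 (0.63 ± 0.15), TK1 (0.51 ± 0.13), DUT (0.41 ± 0.08) and RFC2 (0.33 ± 0.09) completed the 17 members that rose in NKO cells on IgG. MCM4, at 107 and 90.5 TPM, MCM7 (0.26 ± 0.08, limma adjusted p = 0.0741), CDT1, at 32.0 and 34.2 TPM (0.20 ± 0.12, adjusted p = 0.309), and E2F2, at 1.40 and 1.06 TPM (0.51 ± 0.19, adjusted p = 0.12), were not called. This count depended on the libraries: it was 2 in a fit of the 4 libraries compared, where 1.38% of all genes rose. Leaving out NT IgG 2, NT IgG 3 or NKO IgG 1 lowered it as well. The count was 9 with no filter (1.64% of all genes rose) and 11 with column number as a replicate block (3.41%). The block ended the calls of CDC6, MCM3, MCM5, RFC2, POLA1, CCNE1 and UHRF1. Column number 1 occurs only in NKO cells, so the block takes up part of the difference between the lines. TYMS alone was called under every one of the 12 alternatives. MCM6, PCNA and E2F1 lost the call only in the fit of the 4 libraries compared, and RRM2 only without NT IgG 2 (adjusted p = 0.0519). CCNE2 lost it without NT IgG 3 (0.0523) or NKO IgG 1 (0.0585), MCM2 without NT IgG 2 (0.0856) or NKO IgG 1 (0.0701), and MCM5 without NT IgG 2 (0.203), NKO IgG 1 (0.122) or NKO IgG 2 (0.0761). CCNE1 (0.0623 to 0.158), CDC6 (0.109 to 0.184) and MCM3 (0.0756 to 0.114) lost it without NT IgG 2, NT IgG 3 or NKO IgG 1. RFC2 lost it without any one of the 4 libraries and POLA1 without those same 3 (highest adjusted p over all alternatives 0.234 and 0.193), UHRF1 without NT IgG 2 or NKO IgG 1 (0.17), DNMT1 without NT IgG 3 or NKO IgG 1 (0.103), TK1 without NT IgG 2, NT IgG 3 or NKO IgG 2 (0.167) and DUT without NT IgG 2 or NT IgG 3 (0.0763).

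On DLL4 the difference between NKO and NT cells covered nearly all of the genes. Of the 46 members 43 rose and 0 fell (11.4% and 9.31% of all genes tested), with a median of 0.81 beside 0.06 for all genes. One of the calls, E2F2, passed the filter only through libraries of the edited lines, where it is high, and without it the count was 42 of 45. Both NKO libraries lay above both NT libraries in 45 members, against 37.1% of all genes, and GINS4 alone was lower in both. The 3 members not called were GINS4 (-0.13 ± 0.18, limma adjusted p = 0.66), GINS1 (0.40 ± 0.13, adjusted p = 0.0574) and CLSPN (0.46 ± 0.20, adjusted p = 0.136). TYMS was at 212 and 212 TPM in NKO cells against 99.4 and 92.8 in NT cells (1.13 ± 0.07, adjusted p = 2.08e-06). E2F1 was at 40.7 and 39.0 TPM (1.28 ± 0.10, adjusted p = 8.75e-06) and MCM2 at 45.7 and 44.1 TPM (1.27 ± 0.10, adjusted p = 1.31e-05). In both, the NKO level on DLL4 was also above the NT level on IgG. PCNA, at 401 and 372 TPM, rose by 0.74 ± 0.07 (adjusted p = 2.64e-05), CDC6, at 64.9 and 65.1 TPM, by 1.07 ± 0.10 (4.37e-05) and MCM7, at 158 and 145 TPM, by 0.87 ± 0.08 (4.56e-05). CCNE2 had the highest value of any member, 1.56 ± 0.18 (0.000151), at 29.5 and 22.0 TPM, and CCNE1, at 19.1 and 16.4 TPM, rose by 1.22 ± 0.17.

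Of the other helicase subunits in NKO cells on DLL4, MCM5 was at 108 and 118 TPM (0.98 ± 0.10), MCM3 at 85.7 and 76.5 (0.93 ± 0.10), MCM6 at 31.7 and 30.5 (0.99 ± 0.10) and MCM4 at 98.2 and 90.3 (0.49 ± 0.14). MCM4 moved least, and its call was lost without NT DLL4 3 (limma adjusted p = 0.194), NKO DLL4 1 (0.154) or NKO DLL4 2 (0.0662). CDT1, at 28.7 and 29.1 TPM, rose by 0.89 ± 0.12. E2F2, at 1.09 and 0.987 TPM against 0.353 and 0.218 in NT cells, differed by 0.67 ± 0.19 (adjusted p = 0.0308), but since it passed the filter only where it is high this call supports nothing, and it was lost without any one of the 4 libraries (0.07 to 0.153). The remaining calls ran from 0.29 (POLD2) to 1.11 (UHRF1). Of the 43 calls 32 held under every alternative, and leaving out any 1 of the 4 libraries ended some of the others. Besides MCM4 and E2F2, calls of ORC6, CDC45, GINS3, POLA2, PRIM1, POLD2, POLE, POLE2 and LIG1 were the ones lost, with a highest adjusted p of 0.0703 (POLE2) to 0.22 (POLE). All 17 members that rose on IgG also rose on DLL4, where they were 39.5% of the 43. With 43 of the 46 members called on DLL4, that overlap was nearly fixed beforehand. In the lists outside the 46, NKO against NT cells on DLL4 gave 4 of 8 other licensing genes, 12 of 24 other fork genes, 8 of 18 E2F, RB and CDK genes, 6 of 10 other nucleotide genes and 12 of 30 mitosis genes that rose, with 1 fork gene that fell, where 11.4% of all genes rose. In TKO cells the counts that rose were 1, 4, 3, 3 and 9, with 1 fork gene and 1 E2F, RB or CDK gene that fell, where 16.1% of all genes rose, so the licensing, fork and E2F, RB and CDK counts were near that background.

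**Figure D4:**
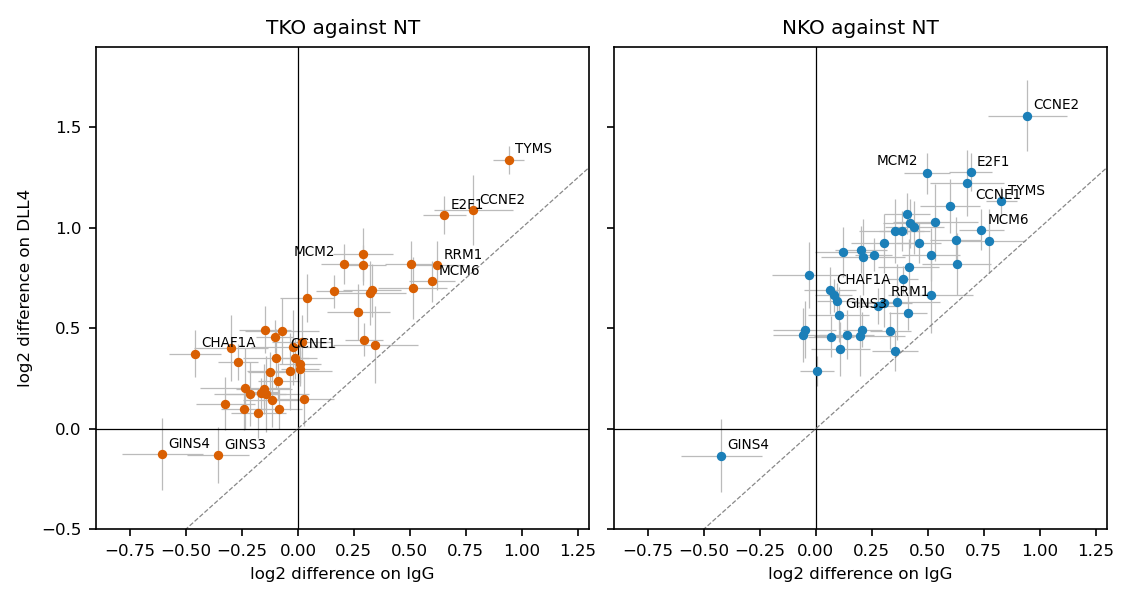
Difference of each of the 46 genes between an edited line and NT cells on IgG (horizontal) and on DLL4 (vertical), in log2(TPM + 1) with standard errors of the fit; the dashed line marks equal differences, and both panels share axes. All 46 points lie above the dashed line in each panel; TYMS has the highest value in TKO cells and CCNE2 in NKO cells.

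The plot of the 2 differences shows each gene above the line of equal values, which restates that all 46 responses to DLL4 were less negative in the edited lines. CHAF1A fell in TKO cells on IgG and rose on DLL4 (0.37 ± 0.12, limma adjusted p = 0.0349), a call lost without NT DLL4 3 or either TKO DLL4 library (highest adjusted p 0.22), and in NKO cells it was at 51.2 and 60.5 TPM on IgG and 46.8 and 46.7 on DLL4. POLD1 was called in the same directions in TKO cells (0.33 ± 0.09 on DLL4). Its call on IgG was lost under 8 of 12 alternatives and that on DLL4 under 4 of 12. RRM1 was at 88.9 and 75.1 TPM on IgG and 84.0 and 73.6 on DLL4 in NKO cells, and at 95.8 and 83.9 on DLL4 in TKO cells. GINS4 stayed at 19.2 and 17.2 TPM in TKO and 17.7 and 18.4 TPM in NKO cells on DLL4, near the NT level there (19.6 and 20.3).

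**Figure D5:**
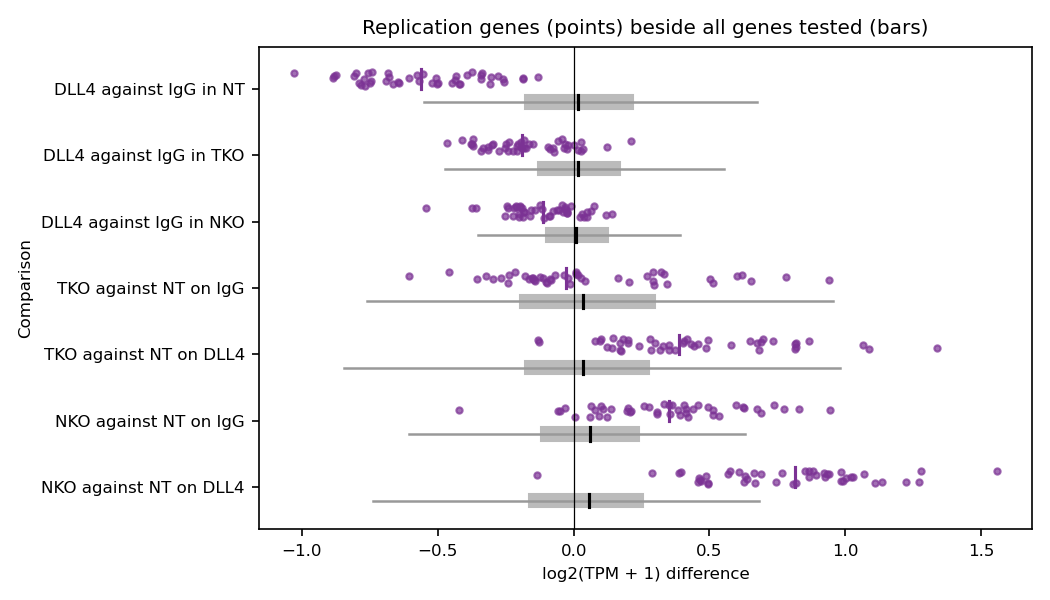
Log2(TPM + 1) differences of the 46 genes (purple points, median as a line) in the 7 comparisons between groups, beside all 13299 genes tested (grey box from the 25th to the 75th percentile with the median in black, thin line from the 5th to the 95th percentile). In NT cells the points centre on -0.56 and in NKO against NT cells on DLL4 on 0.81, while the medians of all genes lie between 0.01 and 0.06.

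Some members lie on chromosomes whose median differed between lines. RRM1, FEN1 and POLA2 are on chromosome 11, where the median of 585 other protein-coding genes with a mean of at least 5 TPM was 0.53 in TKO against NT cells on IgG and 0.59 on DLL4. TYMS is on chromosome 18 (657604 to 673578, plus strand, GENCODE 29 on GRCh38), where the median of 130 other such genes was 0.51 on IgG and 0.47 on DLL4, and that of the 23 nearest to TYMS 0.70 and 0.55. Over 9296 such genes of the genome the medians were 0.02 and 0.04. TYMS itself, at 0.94 and 1.34, lay above its neighbours, RRM1 (0.62 and 0.81) near its 40 neighbours (0.53 and 0.61), and on IgG, where they were not called, FEN1 (0.16) and POLA2 (0.29) below theirs (0.48 and 0.55). On DLL4, where both rose, FEN1 (0.68) and POLA2 (0.87) lay above theirs (0.55 and 0.73). The 42 members elsewhere gave 7 that rose and 3 that fell on IgG (median -0.08) and 20 that rose on DLL4 (median 0.35). In NKO cells TYMS rose by 0.83 and 1.13 with neighbours at 0.12 on both coatings. GINS4 and MCM4 are on chromosome 8, where their 40 nearest genes had medians of -0.41 and -0.42 in NKO against NT cells on IgG and -0.42 and -0.40 on DLL4, beside 0.06 and 0.07 over the genome. GINS4 itself was at -0.42 and -0.13 in that comparison and MCM4 at -0.05 and 0.49, so MCM4 lay above its neighbours on both coatings. CCNE2, farther along the same chromosome, had neighbours at 0.09 and 0.08. The part of these regional differences in the members' values was not tested.

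For 10 members an exon overlaps an exon of a protein-coding gene on the opposite strand, and whether the counting used strand is not given in the sources used here, so their levels are less certain. Overlaps with genes that are not protein-coding were not searched. The longest overlaps are those of CCNE2 with INTS8 (1629 bases) and of TYMS with ENOSF1 (967 bases). ENOSF1 was at 45.6 to 72.5 TPM and changed by 0.31 and 0.43 in TKO and 0.05 and 0.22 in NKO against NT cells on IgG and DLL4, and INTS8 was at 31.0 to 45.0 TPM and changed by -0.06 and -0.15 and by 0.21 and 0.20. Neither moved as far as its partner. MCM7 shares 392 bases with AP4M1, which was at 18.8 to 29.2 TPM and changed by 0.10 on DLL4 in NT cells, and FEN1 shares 166 bases with TMEM258, which changed by -0.10 there and by 0.45 and 0.73 in TKO against NT cells. Named pseudogene copies of 9 members (23 copies) were all at or below 0.199 TPM.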

How the data were processed

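The values used are TPM by gene symbol, 1 table for all 12 libraries, as the authors deposited it; the submitters' processing notes name kallisto, edgeR and hg38, with no versions, with the annotation, the strand setting and the summing of transcripts to symbols not given in the sources used here. Libraries were made from 140 ng of total RNA. Depth is unknown, because TPM keep no read totals, so no count test was run. Genes with at least 1 TPM in at least 2 libraries (13299 of 35587) were tested with limma 3.58.1 in R 4.3.3 on log2(TPM + 1), as 6 group means over all 12 libraries with a variance trend (6 residual degrees of freedom, 10.76 after moderation) and 10 contrasts, each with Benjamini-Hochberg adjustment over all genes tested; the fit was tested on simulated data. All groups share 1 estimate of the spread. The members and lists were chosen with earlier results of these data known. Genes named were, per contrast, the members called with the smallest p, the MCM2 to MCM7, cyclin E, E2F and PCNA genes throughout, and up to 4 genes of smallest p per other list; members beyond these were named to account for all 46. Alternatives were a pseudocount of 0.1, no filter, a mean of at least 5 TPM, median-of-ratios rescaling, KPNA2P2 left out, a block on column number, no variance trend, only the libraries compared, and each library left out, where the lone library is assumed to vary like the other groups. Gene positions are from GENCODE 29 (GRCh38); neighbours are the 20 nearest protein-coding genes tested on each side with a mean of at least 5 TPM. Promoter windows and their sequences are from RefSeq (GRCh38.p14), with 5 members not in that table: MCM4, MCM5, GINS4, RPA2 and CCNE2. Plots used Python 3.11.15 and matplotlib 3.10.9.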

Additional observations from a re-analysis of the deposited data

Results flagged for a closer look

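A direct test of the difference in response to DLL4 between NKO and NT cells called 3 of the 46 genes, all less negative in NKO cells. Of all genes tested 0.316% were called positive and 0.571% negative. The difference on the log2(TPM + 1) scale was 0.77 for MCM2 (limma adjusted p = 0.0407), 0.61 for MCM7 (adjusted p = 0.0443) and 0.58 for FEN1 (adjusted p = 0.0467), each with n = 2 libraries in each of 4 groups, in the limma fit over all genes. MCM2 changed by -1.03 in NT and -0.25 in NKO cells, MCM7 by -0.77 and -0.16, and FEN1 by -0.74 and -0.16. In NT cells both DLL4 libraries of each gene lay below both IgG libraries, and the same held in NKO cells with a smaller gap. All 3 differences missed the threshold when any one of the 8 libraries was left out, with column number as a replicate block, with no filter, with no variance trend and with only the libraries compared.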

How the results depend on the processing

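No called member reversed its direction under any alternative: of the values of the 66 named results under their alternatives 637 kept their call and 166 lost it. Counts of members called moved by over 1.5 times as follows, and the counts not named here stayed within that range. DLL4 in NT cells gave 30 calls, 18 with only the libraries compared, and 17 to 19 without 1 library. DLL4 in TKO cells gave 2, but 0 with no filter, with no variance trend or with only the libraries compared, 4 with a mean of at least 5 TPM, 5 with median-of-ratios rescaling or with KPNA2P2 left out, and 0 to 2 without 1 library. TKO against NT cells on IgG gave 12, 5 with only the libraries compared and 5 to 9 without 1 library. NKO against NT cells on IgG gave 17, 9 with no filter, 2 with only the libraries compared, and 6 to 17 without 1 library. The TKO minus NT response gave 0, 2 with a mean of at least 5 TPM and 0 to 1 without 1 library. The NKO minus NT response gave 3, 0 with no filter, with no variance trend or with only the libraries compared, 5 with median-of-ratios rescaling, and 0 to 1 without 1 library. Fits of fewer libraries have fewer degrees of freedom by construction, and the cause of the other moves was not tested.

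With column number as a replicate block the calls were 35 for DLL4 in NT cells, 2 in TKO and 0 in NKO cells, 11 and 27 for TKO against NT cells on IgG and DLL4, 11 and 35 for NKO against NT cells, and 1, 0 and 0 for the differences of responses (TKO minus NT, NKO minus NT and TKO minus NKO), so the block moved the NKO count on IgG from 17 to 11, the TKO minus NT count from 0 to 1 and the NKO minus NT count from 3 to 0. Number 1 occurs only in NKO cells and number 3 only in NT and TKO cells. The block therefore takes up part of the difference between NKO and NT cells. On IgG the median of that difference over all genes was 0.062 without the block and 0.0216 with it. Deviations from the group mean correlated at -0.154 to 0.279 over 22 same-numbered pairs of libraries. With 2 libraries a group the deviations are mirror images, so 2 pairs between the same groups give 1 value. Only the value between the coatings of NKO cells (0.279) exceeded 0.1. The main fit did not pair libraries by number, and these values cannot decide whether it should. Whether same-numbered libraries share a culture is not given.

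With 2 libraries a group and depth unknown, differences well above the standard errors given also went without a call. A member without a call is therefore not shown to be unchanged.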

Other observations

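Of 21 checkpoint and recombination genes 4 fell and 0 rose on DLL4 in NT cells (median -0.27), 0 fell and 1 rose in TKO cells (-0.15) and limma called 0 in NKO cells (-0.08), where 8.34% and 7.68% of all genes fell and rose in NT cells, with 2.41% and 4.11% for TKO and 0.271% and 0.511% for NKO cells. In NT cells EXO1, an exonuclease of mismatch repair and end resection, fell on DLL4 by 0.70 ± 0.15 (limma adjusted p = 0.0113) and RAD54L, a DNA translocase of recombination, by 0.46 ± 0.12 (adjusted p = 0.0304). On DLL4, 10 of the 21 rose in NKO against NT cells (median 0.50) and 3 in TKO against NT cells (0.24), and 0 fell in either, where 11.4% and 16.1% of all genes rose, so the TKO count was near that background.

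Of 8 genes tested for CDK inhibitors, D cyclins and MYC, 5 rose and 2 fell on DLL4 in NT cells (median 0.57), 2 rose and 1 fell in TKO cells (0.20) and limma called 0 in NKO cells (0.21), beside the same shares of all genes. The difference of responses passed for CDKN2B, an inhibitor of CDK4 and CDK6, at -1.55 ± 0.17 for TKO minus NT (limma adjusted p = 0.0075) and -1.40 ± 0.17 for NKO minus NT (adjusted p = 0.00276), 2 comparisons that share the NT libraries. CCND1 and CCND3, which encode D cyclins, were called on DLL4 in both NT and TKO cells. CCND1 fell by 0.85 ± 0.13 (NT, limma adjusted p = 0.00136) and 0.88 ± 0.13 (TKO, 0.00216). CCND3 rose by 0.63 ± 0.09 (NT, 0.00097) and 0.39 ± 0.09 (TKO, 0.0257). Neither passed for NKO (-0.57 ± 0.13, adjusted p = 0.0868, and 0.20 ± 0.09, 0.53). No difference of responses from NT passed for these 2 genes (adjusted p = 0.172 to 0.963). CDKN1A, which encodes the CDK inhibitor p21, changed on DLL4 by 0.86 ± 0.09 in NT (adjusted p = 0.000108), 0.59 ± 0.09 in TKO (adjusted p = 0.00238) and 0.22 ± 0.09 in NKO cells (adjusted p = 0.46), and its difference of responses was -0.65 ± 0.12 for NKO minus NT (adjusted p = 0.0428) and -0.27 ± 0.12 for TKO minus NT, which did not pass (adjusted p = 0.324).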
